A study of Homo sapiens with 6 samples.

Results

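Cholesterol synthesis, uptake and its control by the SREBP transcription factors were examined through 35 genes among the 56638 gene symbols counted in HCT116 cells. HCT116 is a human colorectal carcinoma cell line. The 35 genes are 19 enzymes of cholesterol synthesis, 7 genes of SREBP control, 5 genes of cholesterol uptake and intracellular handling, and 4 genes of the liver X receptor (LXR) pathway and cholesterol efflux. They were taken by symbol as a pathway list. They were selected on the pathway with earlier METTL3-KO against WT values of these same samples known, the higher INSIG1 level among them, so their values in that comparison are described here and not tested.

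RNA-seq libraries came from 3 WT samples and 3 METTL3-knockout (METTL3-KO) samples, all in McCoy's 5a medium with no treatment named in the labels, between passages 16 and 19. METTL3 is the catalytic subunit of the complex that places N6-methyladenosine on mRNA. The study's methods describe the METTL3-KO cells as 1 monoclonal line made with a lentiviral CRISPR-Cas9 vector and puromycin selection, so effects of the METTL3 edit and of anything else particular to the clone cannot be told apart. The labels call these samples METTL3-KO, but their deposited files carry the tag SiM3, which no source used here explains and which could stand for an siRNA. The groups follow the labels, and whether these libraries came from the clone was not tested. No source says that the samples of a group were separate cultures, so errors and p-values measure only the spread between these samples, which may be technical.

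Cells obtain cholesterol by making it from acetyl-CoA through mevalonate, squalene and lanosterol, and by taking up lipoproteins that are unpacked in lysosomes. The SREBP proteins are made as precursors in the membrane of the endoplasmic reticulum, where SCAP carries them to the Golgi when sterols are low and INSIG proteins hold SCAP back when sterols are high. In the Golgi the proteases encoded by MBTPS1 and MBTPS2 release the active factor, which enters the nucleus and induces synthesis and uptake genes and INSIG1 itself. LXR acts in the opposite sense, binding oxysterols and inducing genes that export cholesterol.

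Each sample held between 20936091 and 30142144 read pairs counted on genes. METTL3 had 841, 682 and 623 counts in WT samples and 219, 169 and 162 in METTL3-KO samples. Its log2 fold change was -2.04, with an SE of 0.0906 and an adjusted p = 1.59e-07 (edgeR quasi-likelihood, Benjamini and Hochberg). Replicate 3 stood apart in both groups. The chi-square per gene, which is near 1 for sampling noise alone, against the other replicates of its group was 23.1 and 23.0 in WT and 11.2 and 8.32 in METTL3-KO, where the other pair of each group gave 2.58 and 2.34. Values of the 35 genes are therefore also given without replicate 3 of both groups where they moved by more than 1.5 times or a call changed. The epithelial marker EPCAM held 10159 to 14888 counts in every sample, and of 5 epithelial markers CDH1, KRT8 and VIL1 were called higher in METTL3-KO samples. CDH1 and KRT8 lost that call in a fit blocked by replicate number (adjusted p = 0.175 and 0.0788 from edgeR) and without single samples, and KRT8 went from 0.36 to 0.20 without replicate 3 of both groups, while VIL1 kept its call in each alternative. Of 6 markers of leukocytes, endothelium and fibroblasts, PTPRC, PECAM1, COL3A1 and DCN had 0 or 1 count in each sample. COL1A1 had 166, 125 and 100 counts in WT and 188, 151 and 185 in METTL3-KO samples. Relative to library size, its METTL3-KO samples all lay above its WT samples, but it was not called at a log2 fold change of 0.36 (SE 0.139). LUM had 15, 9 and 5 counts in WT and 77, 48 and 46 in METTL3-KO samples and was called higher at 2.46 (SE 0.287). The part of COL1A1, LUM and the epithelial markers in the results was not tested. In bulk RNA, fewer cells of a type and less RNA per cell cannot be told apart.

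All 35 genes passed the minimum of 5 total counts in at least 1 group. A gene is called here when its adjusted p in the fit over all 22452 genes tested was under 0.05. Of the 35 genes, 15 were called higher and 5 lower in METTL3-KO cells and 15 were not called. Over all genes tested, 13.3% were called higher and 13.2% lower, and because the list was chosen with this comparison known, nothing is read from the difference between these shares. The same holds for the counts by role below. The median log2 fold change was 0.18 over the 35 genes and -0.02 over all genes tested. All METTL3-KO samples lay above all WT samples for 19 of the 35 genes and below them for 6, where 20.2% and 20.7% of all genes tested did so.

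**Figure D1:**
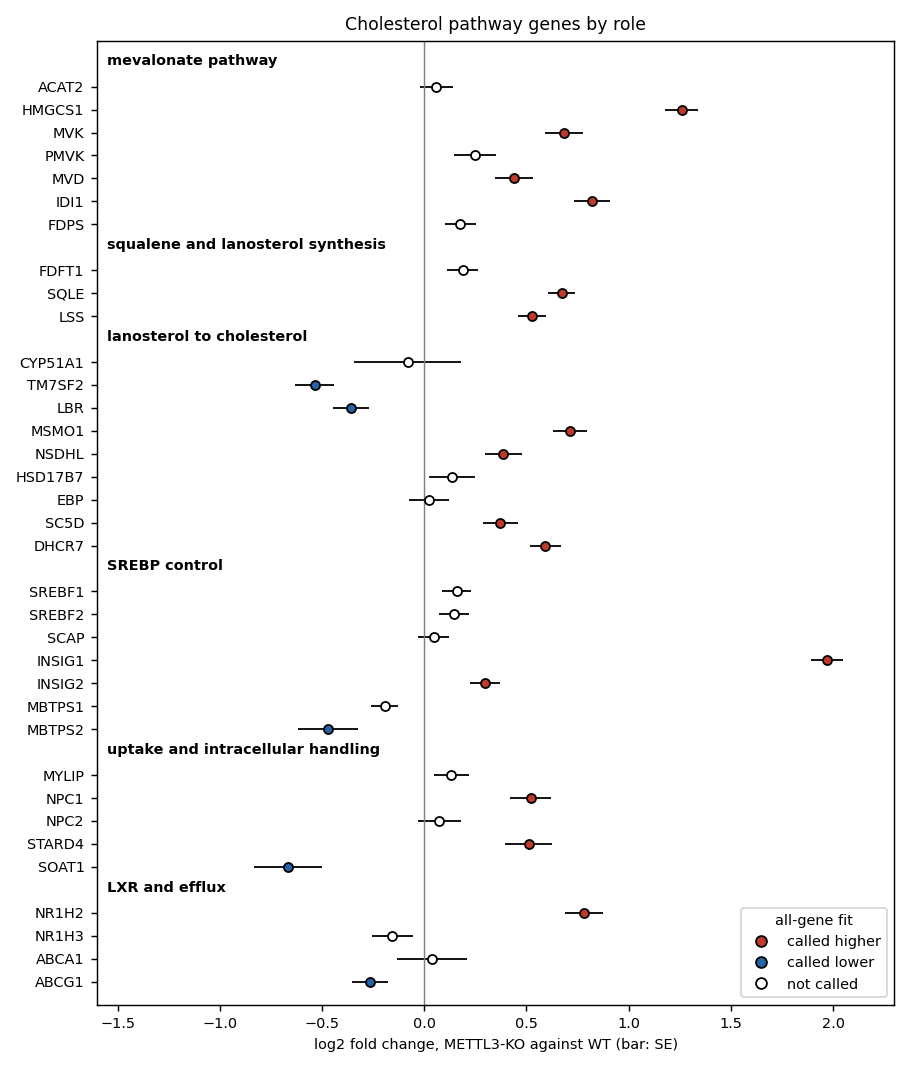
Log2 fold change of METTL3-KO against WT for each of the 35 genes, grouped by role, with bars for the standard error of the fit (3 samples per group) and fill for the call over all genes tested. INSIG1 at 1.97 and HMGCS1 at 1.26 lie farthest to the right, and SOAT1 at -0.67 and TM7SF2 at -0.54 farthest to the left.

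Among the 7 genes of SREBP control, INSIG1 and INSIG2 were called higher and MBTPS2 lower. INSIG1 (chr7:155089486-155101945, plus strand, GRCh37), which retains SCAP in the endoplasmic reticulum, had 606, 483 and 428 counts in WT and 2490, 1880 and 1910 in METTL3-KO samples. On the CPM scale, which puts read pairs of each library on 1 TMM-normalised size, its level was 22.1, 21.4 and 20.1 in WT and 82.6, 85.5 and 81.2 in METTL3-KO samples. The groups were far apart, with every METTL3-KO value above every WT value, and the log2 fold change of 1.97 (SE 0.0771, a 3.92-fold difference) was the highest of the 35 genes. Its value lay between 1.9379 and 2.0044 when any 1 sample was left out.

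Promoter sequence of RefSeq (assembly GRCh38.p14) was available for 31 of the 35 genes and is shown for 5 of them. SREBF2 is shown because it alone held the letters of the classical sterol regulatory element, TCACNCCAC, in the 250 bases before its start. INSIG1, HMGCS1, MSMO1 and MVK are shown because they had the highest fold changes among called genes whose promoter held CCAAT letters. These are the binding letters of NF-Y, a factor known to act beside SREBP. IDI1 (log2 fold change 0.82) and NR1H2 (0.78) lay above MSMO1 and MVK, but their promoters held none of these letters and are not shown. Both sets of letters were searched on both strands and do not overlap. Capitals mark TCACNCCAC and CCAAT or its complement ATTGG. Each sequence runs 5′ to 3′ on the strand of its gene. The SREBF2 window is chr22:41832932-41833020 on the plus strand, and the other windows cover 220 to 21 bases before the start: INSIG1 at chr7:155297658-155297857 (plus), HMGCS1 at chr5:43313433-43313632 (minus), MSMO1 at chr4:165327449-165327648 (plus) and MVK at chr12:109573574-109573773 (plus).
SREBF2: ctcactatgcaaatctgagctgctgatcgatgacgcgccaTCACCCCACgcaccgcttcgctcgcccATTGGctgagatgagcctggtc
INSIG1: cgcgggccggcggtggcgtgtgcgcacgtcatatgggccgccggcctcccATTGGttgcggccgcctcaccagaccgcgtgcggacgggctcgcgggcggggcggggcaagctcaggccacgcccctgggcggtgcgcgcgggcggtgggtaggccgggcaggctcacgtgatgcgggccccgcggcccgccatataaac
HMGCS1: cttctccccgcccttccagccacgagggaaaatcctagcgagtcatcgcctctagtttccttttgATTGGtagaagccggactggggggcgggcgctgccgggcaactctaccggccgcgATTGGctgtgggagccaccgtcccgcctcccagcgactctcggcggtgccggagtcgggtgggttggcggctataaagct
MSMO1: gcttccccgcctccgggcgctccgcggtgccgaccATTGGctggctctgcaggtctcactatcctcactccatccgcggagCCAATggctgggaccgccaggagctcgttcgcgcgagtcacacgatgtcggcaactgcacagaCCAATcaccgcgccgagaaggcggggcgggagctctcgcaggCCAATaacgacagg
MVK: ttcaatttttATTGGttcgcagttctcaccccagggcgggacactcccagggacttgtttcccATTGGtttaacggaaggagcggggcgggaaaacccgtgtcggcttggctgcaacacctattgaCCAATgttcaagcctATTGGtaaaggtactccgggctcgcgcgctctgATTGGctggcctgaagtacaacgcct

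The sterol element of SREBF2 began 133 bases before its start. Its letters were present in 1 of the 31 promoters (3.23%) and in 239 of 27305 promoters of all genes (0.875%). CCAAT was present in 18 of the 31 (58.1%) and in 9021 of all 27305 (33.0%). The INSIG1 window held CCAAT once, HMGCS1 held it at 2 places, MSMO1 at 4 and MVK at 5. These letters were also present for TM7SF2 and SOAT1, called lower, and for genes not called, FDPS and EBP among them. They were absent for INSIG2 and NPC1, called higher. A link between these letters and the fold changes was not tested. A match is a description of letters in this window, and a missing match says nothing of a factor's binding.

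INSIG2 (chr2:118846028-118868573, plus strand), the second retention protein, had 40.5, 38.0 and 38.5 CPM in WT and 47.8, 49.5 and 46.9 CPM in METTL3-KO samples. The groups did not overlap, but the log2 fold change was only 0.30 (SE 0.0736), and the call was lost without METTL3-KO replicate 2 (adjusted p = 0.0543 from edgeR) and in a fit blocked by replicate number (adjusted p = 0.0799 from edgeR). Levels of the pair can be set side by side per kilobase of the longest transcript. By that scale INSIG1 was at 7.28 ± 0.350 and INSIG2 at 10.96 ± 0.375 CPM per kilobase in WT (mean ± SD, n = 3 each), and at 28.6 ± 0.758 and 13.5 ± 0.368 in METTL3-KO samples. The order of the pair was thus reversed between groups. The ratio of INSIG1 to INSIG2 per kilobase was 0.667, 0.689 and 0.638 in the WT samples and 2.12 in each METTL3-KO sample. Among the 35 genes ordered by level per kilobase, INSIG1 stood at place 25 in WT and at place 11 in METTL3-KO cells.

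SREBF1 and SREBF2, which encode the SREBP precursors, were not called. SREBF1 (chr17:17713713-17740316, minus strand), whose products act mostly on fatty acid genes, had 122, 115 and 113 CPM in WT and 125, 132 and 135 CPM in METTL3-KO samples. The groups did not overlap, with a log2 fold change of 0.16 (SE 0.0706). SREBF2 (chr22:42229109-42303310, plus strand), whose product acts mostly on cholesterol genes, had 156, 148 and 170 CPM in WT and 174, 180 and 170 CPM in METTL3-KO samples. WT replicate 3 lay in the range of the METTL3-KO samples, and the log2 fold change was 0.15 (SE 0.0741). Without replicate 3 of both groups, SREBF1 was at 0.11 and SREBF2 at 0.22, and both were then called. That fit called 4555 genes higher and 4823 lower over all genes, against 2986 and 2959 in the main fit. Smaller differences were therefore called there, which holds for the other genes given without replicate 3. The ratio of SREBF2 to SREBF1 per kilobase was 1.16 ± 0.108 in WT and 1.15 ± 0.0607 in METTL3-KO samples (mean ± SD, n = 3 each).

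SCAP (chr3:47455171-47518616, minus strand), the escort of the precursors, had 74.6, 68.8 and 74.4 CPM in WT and 74.5, 71.4 and 78.9 CPM in METTL3-KO samples. These ranges overlapped, with a log2 fold change of 0.05 (SE 0.0748), and of 0.02 without replicate 3 of both groups. Both Golgi proteases had negative fold changes. MBTPS1, which makes the first cut, was at -0.19 (SE 0.0670) and not called, although all METTL3-KO samples lay below all WT samples and it was called in 5 of 14 alternative analyses, among them that without replicate 3 of both groups at -0.17. MBTPS2, which makes the second cut within the membrane, was called at -0.47 (SE 0.145). That call was lost in 7 of 14 alternative analyses, and without replicate 3 of both groups the value was -0.20.

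**Figure D2:**
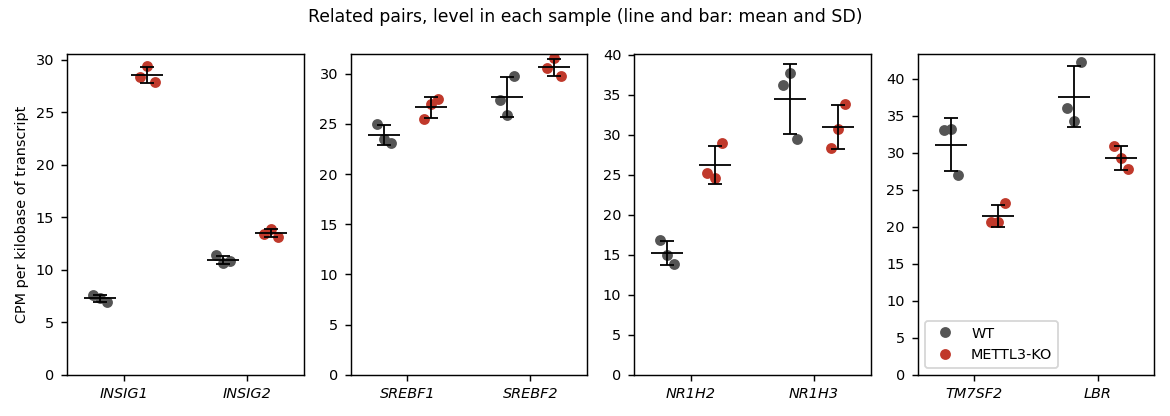
Levels of 4 related pairs of genes in each sample, in CPM per kilobase of the longest transcript on a linear axis from 0, with WT samples in grey and METTL3-KO samples in red and lines for mean and SD (n = 3 each). INSIG1 passes from below to above INSIG2, NR1H2 approaches NR1H3, both members of the TM7SF2 and LBR pair are lower in METTL3-KO samples, and SREBF2 stays close to SREBF1.

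Of the 19 synthesis enzymes, 10 were called higher and 2 lower, with a median log2 fold change of 0.37. Over all genes tested these shares were 13.3% and 13.2%, and nothing is read from the difference. The 7 enzymes of the mevalonate segment all had positive fold changes and 4 of them were called higher. HMGCS1 (chr5:43287572-43313614, minus strand), which joins acetoacetyl-CoA and acetyl-CoA to HMG-CoA, had 41.9, 45.3 and 48.8 CPM in WT and 114, 106 and 105 CPM in METTL3-KO samples. With a log2 fold change of 1.26 (SE 0.0808, 2.39-fold) it came next after INSIG1, and the groups were well separated. IDI1 (chr10:1085092-1095059, minus strand), which isomerises isopentenyl diphosphate, had 42.0, 40.8 and 33.9 CPM in WT and 68.9, 68.0 and 69.4 CPM in METTL3-KO samples. WT replicate 3 was the lowest IDI1 value, the METTL3-KO samples lay close together, and the log2 fold change was 0.82 (SE 0.0883). MVK (chr12:110011060-110035930, plus strand), which phosphorylates mevalonate, had 12.3, 13.9 and 12.6 CPM in WT and 20.1, 20.2 and 22.0 CPM in METTL3-KO samples. The groups did not overlap, with a log2 fold change of 0.68 (SE 0.0927).

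MVD, the decarboxylase that makes isopentenyl diphosphate, was the fourth called gene of the segment at 0.44 (SE 0.0942), and at 0.28 without replicate 3 of both groups. PMVK, which adds the second phosphate to mevalonate, was not called at 0.25 (SE 0.104). METTL3-KO replicate 3 was its highest sample, at 38.9 CPM against 30.8 and 30.3 in the other METTL3-KO samples, and without replicate 3 of both groups the value was 0.08. FDPS, the farnesyl diphosphate synthase, was at 0.18 (SE 0.0762) and not called, although all METTL3-KO samples lay above all WT samples, and without replicate 3 of both groups it was called at 0.20. ACAT2, the thiolase that condenses acetyl-CoA, was at 0.06 (SE 0.0823) with overlapping groups, and at 0.02 without replicate 3 of both groups. The segment therefore held its highest fold change at the HMG-CoA synthase step and its lowest at the thiolase step before it.

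The 3 enzymes from farnesyl diphosphate to lanosterol all had positive fold changes, and 2 were called. SQLE (chr8:126010739-126034525, plus strand), the squalene epoxidase, had 137, 137 and 131 CPM in WT and 219, 215 and 212 CPM in METTL3-KO samples. The spread within each group was small beside the difference between groups, with a log2 fold change of 0.67 (SE 0.0660). LSS (chr21:47608055-47648738, minus strand), which cyclises the epoxide to lanosterol, had 43.6, 43.1 and 42.0 CPM in WT and 63.3, 61.6 and 60.5 CPM in METTL3-KO samples. Its groups were equally well separated, with a log2 fold change of 0.53 (SE 0.0707). FDFT1, the squalene synthase before them, was not called at 0.19 (SE 0.0775), and at 0.12 and called without replicate 3 of both groups. FDFT1 and SQLE had the highest levels of the 35 genes in WT, 52.3 ± 4.54 and 45.6 ± 1.12 CPM per kilobase. In METTL3-KO samples SQLE, at 72.7 ± 1.12, stood above FDFT1, at 59.6 ± 0.465 CPM per kilobase (mean ± SD, n = 3 each).

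**Figure D3:**
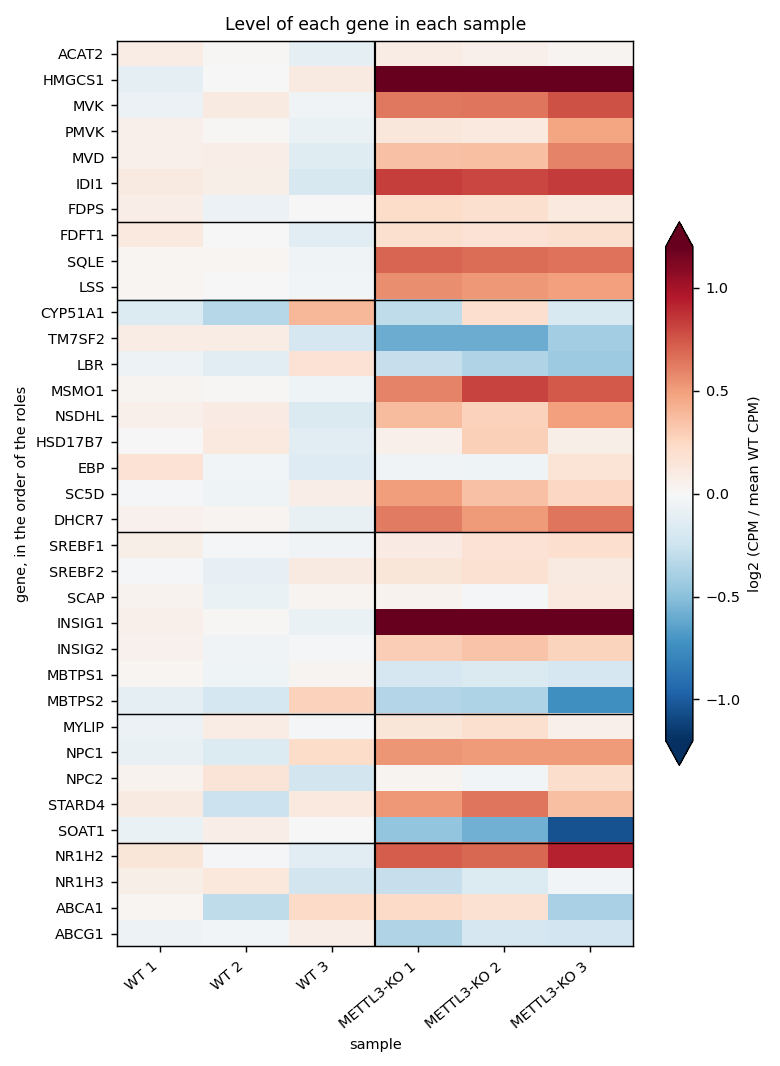
Level of each of the 35 genes in each of the 6 samples as log2 of CPM over the mean WT CPM, on a colour scale that saturates for INSIG1 and HMGCS1, with lines between the roles and between the groups. The METTL3-KO columns are red for most synthesis enzymes, INSIG1, NPC1, STARD4 and NR1H2. They are blue for TM7SF2, LBR, MBTPS1, MBTPS2, SOAT1 and ABCG1. ABCA1 in METTL3-KO replicate 3 departs from the other METTL3-KO samples.

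The 9 enzymes from lanosterol to cholesterol were divided, with 4 called higher, 2 called lower and 3 not called. MSMO1 (chr4:166248819-166264316, plus strand), the C4-methylsterol oxidase, had 24.8, 24.5 and 23.3 CPM in WT and 36.6, 42.4 and 40.1 CPM in METTL3-KO samples. The 2 ranges lay apart, with a log2 fold change of 0.71 (SE 0.0842). DHCR7 (chr11:71139239-71163914, minus strand), which reduces 7-dehydrocholesterol to cholesterol, had 110, 109 and 99.6 CPM in WT and 164, 151 and 165 CPM in METTL3-KO samples. The RNA level of this last enzyme of the route was higher in every METTL3-KO sample than in every WT sample, with a log2 fold change of 0.59 (SE 0.0744). NSDHL, which acts with MSMO1 in removing the C4 methyl groups, was called at 0.39 (SE 0.0903), and at 0.25 without replicate 3 of both groups. SC5D, which introduces the C5 double bond, was called at 0.37 (SE 0.0846). Both NSDHL and SC5D lost their call in the fit blocked by replicate number (adjusted p = 0.0571 and 0.0523 from edgeR).

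The 2 enzymes called lower were TM7SF2 and LBR, which carry the same activity, the reduction of the sterol C14 double bond. TM7SF2 (chr11:64879317-64883856, plus strand) had 69.3, 69.6 and 56.7 CPM in WT and 43.1, 43.2 and 48.7 CPM in METTL3-KO samples. Replicate 3 was nearest to the other group on both sides, yet the groups did not overlap, and the log2 fold change was -0.54 (SE 0.0954). LBR, which is also a lamin B receptor of the inner nuclear membrane, was at -0.36 (SE 0.0879), with 143 ± 15.8 CPM in WT and 112 ± 6.02 CPM in METTL3-KO samples (mean ± SD, n = 3 each). Without replicate 3 of both groups LBR was at -0.23, and its call was lost in the fit blocked by replicate number (adjusted p = 0.0674 from edgeR). The summed level of the pair was 69.3, 67.6 and 69.3 CPM per kilobase in WT and 51.5, 49.9 and 51.0 in METTL3-KO samples. The sum was therefore steadier between samples of a group than either gene, whose ratio ran from 0.641 in replicate 3 to 0.967 in WT. In METTL3-KO samples the ratio was highest in replicate 3, at 0.836. The TM7SF2 and LBR transcripts also differ in length (2094 and 3812 bases) and GC content (64.2% and 37.8%). The cause of the steadier sum was not tested.

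HSD17B7, the 3-ketosterol reductase, was at 0.14 (SE 0.112) and EBP, the sterol isomerase, at 0.02 (SE 0.0983), both with overlapping groups. Without replicate 3 of both groups EBP was at -0.13, not called. CYP51A1, the lanosterol 14-demethylase, had 33, 24 and 38 counts in WT and 33, 34 and 28 in METTL3-KO samples, the lowest level per kilobase of the 35 genes. Its log2 fold change was -0.08 (SE 0.261) and its sign turned when single samples were left out and, at 0.18, without replicate 3 of both groups, where it was not called either. The authors' counting discards read pairs that overlap more than 1 gene, and in GENCODE v44lift37, which is newer than the annotation they used, 74.1% of the CYP51A1 exon bases are shared with other genes. The CYP51A1 count is therefore uncertain as a measure of that enzyme. The same share was 37.7% for HMGCS1, 36.4% for EBP, 22.2% for ACAT2, 22.1% for NR1H2, 18.6% for FDPS, 15% for IDI1 and 13.4% for MBTPS2, and under 10% for the rest. The part of such overlaps in the values was not tested.

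Of the 5 genes of uptake and intracellular handling, 2 were called higher and 1 lower. NPC1 (chr18:21086148-21166470, minus strand), the lysosomal membrane protein that exports cholesterol from lysosomes, had 27.3, 26.0 and 33.8 CPM in WT and 42.0, 41.3 and 41.4 CPM in METTL3-KO samples. WT replicate 3 was nearest to the METTL3-KO samples, which lay close together, and the log2 fold change was 0.52 (SE 0.0992). NPC2, the soluble partner that hands cholesterol to NPC1, was at 0.07 (SE 0.105) with overlapping groups, and at -0.09 and not called without replicate 3 of both groups. STARD4 (chr5:110831731-110848288, minus strand), a cytosolic sterol carrier, had 17.7, 13.8 and 17.8 CPM in WT and 23.6, 25.6 and 21.0 CPM in METTL3-KO samples. No METTL3-KO sample fell to the WT range, and the log2 fold change was 0.51 (SE 0.116). MYLIP, the LXR-induced ubiquitin ligase that degrades lipoprotein receptors, was at 0.13 (SE 0.0856) with overlapping groups.

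SOAT1 (chr1:179262849-179327815, plus strand), which esterifies cholesterol for storage, had 4.22, 4.73 and 4.45 CPM in WT and 3.22, 3.003 and 2.17 CPM in METTL3-KO samples. It was the lowest log2 fold change of the 35 genes at -0.67 (SE 0.166), from 95 to 116 counts in WT and 51 to 97 in METTL3-KO samples. The groups did not overlap, METTL3-KO replicate 3 was the lowest sample, and with any 1 sample left out the value ran from -0.79 to -0.51.

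Of the 4 LXR and efflux genes, 1 was called higher and 1 lower. NR1H2 (chr19:50832910-50886645, plus strand), which encodes the widely expressed LXR beta, had 60.5, 53.9 and 49.7 CPM in WT and 90.4, 88.1 and 104 CPM in METTL3-KO samples. Every METTL3-KO value exceeded every WT value, with a log2 fold change of 0.78 (SE 0.0936). NR1H3 (chr11:47269851-47290584, plus strand), which encodes LXR alpha, had 98.8, 103 and 80.6 CPM in WT and 77.5, 83.9 and 92.2 CPM in METTL3-KO samples. Replicate 3 lay inside the other group's range on both sides, and the log2 fold change was -0.16 (SE 0.101). It was -0.33 and called without replicate 3 of both groups. Per kilobase, the ratio of NR1H2 to NR1H3 was 0.444 ± 0.0399 in WT and 0.847 ± 0.0450 in METTL3-KO samples (mean ± SD, n = 3 each), so NR1H3 stayed the higher of the pair.

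ABCA1 (chr9:107543287-107690436, minus strand), the LXR-induced transporter that loads cholesterol onto apolipoprotein A-I, had 9.29, 7.43 and 10.7 CPM in WT and 10.7, 10.4 and 6.97 CPM in METTL3-KO samples. The ranges overlapped and the log2 fold change was 0.04 (SE 0.172). Without replicate 3 of both groups it was 0.33 and called, so the ABCA1 value rests on which replicates enter. ABCG1 (chr21:43619799-43717354, plus strand), which exports cholesterol to high-density lipoprotein, had 24.4, 24.9 and 26.9 CPM in WT and 19.7, 22.1 and 21.6 CPM in METTL3-KO samples. All METTL3-KO samples lay below all WT samples at a log2 fold change of -0.27 (SE 0.0866), but the call was lost in 8 of 14 alternative analyses, DESeq2 among them (adjusted p = 0.0633).

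Neighbouring gene lists were written by role, with earlier results of these data known. Over all genes tested, 13.3% were called higher and 13.2% lower, and nothing is read from the counts of these lists beside those shares. Of 11 fatty acid genes that SREBP-1 is known to induce, 6 rose and none fell, with a median log2 fold change of 0.46; 7 were higher and 1 lower at an unadjusted p under 0.05, and DESeq2 also called none lower, while ELOVL6 was called lower with the filterByExpr filter and without replicate 3 of both groups. Of the 6, FADS1, a fatty acid desaturase, lost its call with DESeq2 (adjusted p = 0.0931), in both blocked fits and in 5 of the 6 fits without 1 sample, and ACLY, the ATP citrate lyase, lost it in the blocked fit (adjusted p = 0.0595 from edgeR). FASN, the fatty acid synthase, rose by 0.59 (SE 0.0652, adjusted p = 5.15e-05), ACSS2, which makes acetyl-CoA from acetate, by 0.58 (SE 0.0913, adjusted p = 0.000623) and ME1, which makes NADPH, by 0.58 (SE 0.0855, adjusted p = 0.000403), on the log2 scale by edgeR's test. Every METTL3-KO sample lay above every WT sample for these 3 genes. ELOVL6, LPIN1 and SCD, of the same list, were at -0.20, -0.25 and 0.25 and did not pass. Without replicate 3 of both groups SCD, the stearoyl-CoA desaturase, was at 0.44 and passed, and LPIN1 was at -0.03 and did not.

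Of 17 genes that use isoprenoids for other products, 4 rose and 3 fell, with a median of 0.02. PDSS2, a subunit of the enzyme that makes the ubiquinone side chain, rose by 1.08 (SE 0.0908, adjusted p = 8.33e-06 by edgeR), while its partner subunit PDSS1 fell by 0.58 in log2 units (SE 0.105, adjusted p = 0.00160 by edgeR). PDSS1 is named here after its value was seen. RABGGTB, a subunit of the Rab prenyl transferase, rose by 0.51 (SE 0.0824, adjusted p = 0.000699 by edgeR) and NUS1, a subunit of the dolichol-making prenyl transferase, by 0.45 (SE 0.0706, adjusted p = 0.000568 by edgeR). These counts stand beside 13.3% called higher and 13.2% called lower over all genes tested, where the median was -0.02. No contrast with the mevalonate enzymes upstream is read from them.

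Of 14 genes of sterol-regulated protein degradation and SREBP partners, 6 rose and 3 fell, with a median of 0.11. RNF145, a membrane ubiquitin ligase of the sterol-regulated degradation system, had 1619, 1378 and 1199 counts in WT and 2970, 2244 and 2415 in METTL3-KO samples and rose by 0.78 (SE 0.0709, adjusted p = 1.32e-05 by edgeR). PAQR3, which tethers SCAP and SREBP to the Golgi, fell by 0.91 in log2 units (SE 0.131, adjusted p = 0.000336 by edgeR), and FAF2, which recruits the segregase VCP to membranes, fell by 0.63 (SE 0.0816, adjusted p = 0.000154 by edgeR). The genes of INSIG and SCAP handling outside the 35 therefore held changes in both directions.

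Of 17 genes of sterol transport and storage, 7 rose and 5 fell, with a median of 0.03. OSBPL5, an oxysterol-binding-protein relative at membrane contacts, rose by 0.98 (SE 0.0727, adjusted p = 3.55e-06 by edgeR). GRAMD1B and GRAMD1C, of the family that carries plasma membrane cholesterol to the endoplasmic reticulum, rose by 0.59 (SE 0.0730, adjusted p = 0.000116 by edgeR) and 1.18 (SE 0.132, adjusted p = 5.94e-05 by edgeR). Of 5 oxysterol enzymes, 2 had enough counts to be tested, CH25H and CYP7B1 had 0 counts in every sample, and CYP46A1 had at most 1. CYP27A1, the sterol 27-hydroxylase, had 41, 42 and 19 counts in WT and 314, 218 and 235 in METTL3-KO samples and rose by 2.82 (SE 0.185, adjusted p = 1.62e-06 by edgeR). HSD3B7, of bile acid synthesis, fell by 0.60 in log2 units (SE 0.122, adjusted p = 0.00317 by edgeR).

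Of 4 other LXR targets, 1 rose and 2 fell, with a median of -0.24. SMPDL3A, a phosphodiesterase, fell by 0.52 in log2 units (SE 0.128, adjusted p = 0.0104 by edgeR), a call lost without WT replicate 1 and without METTL3-KO replicate 1 (adjusted p = 0.0617 and 0.0502). TTC39B rose by 0.40 (SE 0.124, adjusted p = 0.0308 by edgeR), a call lost without WT replicate 1 or 2 or METTL3-KO replicate 1 or 2 (adjusted p from 0.102 to 0.108), and in the blocked fit (adjusted p = 0.0919), while without replicate 3 of both groups its value was 0.61. PLTP, the phospholipid transfer protein, fell by 0.43 in log2 units (SE 0.135, adjusted p = 0.0343 by edgeR), a call lost with DESeq2 (adjusted p = 0.0799), in the blocked fit (adjusted p = 0.116) and without any 1 sample other than WT replicate 3 (adjusted p from 0.0572 to 0.152). Of the 4 LXR targets, 1 thus had a positive value and 3 had negative values. Among the negative values, LPCAT3 was at -0.04 (SE 0.0775) with overlapping groups and was not called. MYLIP, the LXR-induced ligase placed above with the uptake genes, was at 0.13 and not called either. No shared direction of LXR targets is read from these values. Of the efflux genes, ABCG1 was at -0.27, and ABCA1, at 0.04 and not called, changed sign across the alternatives.

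**Figure D4:**
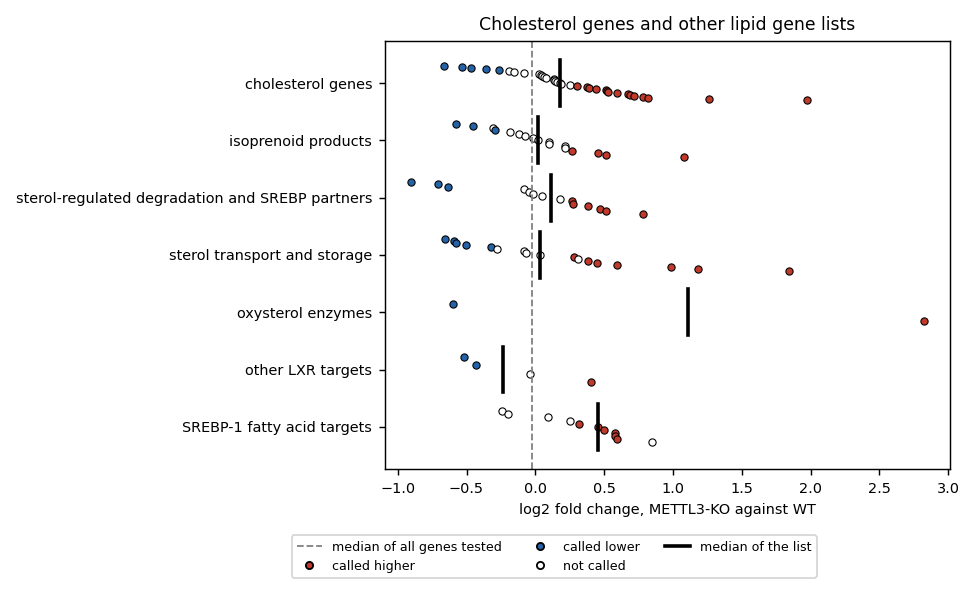
Log2 fold change of METTL3-KO against WT for each tested gene of the 35 cholesterol genes and of 6 neighbouring lists, with fill for the call over all genes tested, a black bar for the median of a list and a dashed line for the median of all genes tested. The SREBP-1 fatty acid list has a median of 0.46 and the cholesterol genes 0.18, the isoprenoid and transport lists lie near the median of all genes, and the LXR list is at -0.24.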

How the data were processed

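RNA-seq was measured in 3 WT and 3 METTL3-KO samples of HCT116 cells, grouped and numbered by their labels. The deposited files, which number the WT samples otherwise and tag the METTL3-KO samples SiM3, hold raw counts of read pairs per gene symbol, which the authors made by mapping paired-end reads to hg19 with TopHat (TopHat2 2.0.11 in the submitters' processing notes, Ensembl GRCh37 transcripts) and counting with htseq-count in union mode. Whether the counting used strand is not given in the sources used here. Read pairs assigned to no gene were 28.2% to 30.7% of each file and stayed out of library sizes. Multiply mapped and ambiguous pairs were already left out, so near-identical copies lose counts.

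A minimum of 5 counts summed over at least 1 group left 22452 of 56638 genes. edgeR 4.0.16 in R 4.3.3 fitted METTL3-KO against WT on the counts of all genes (TMM, quasi-likelihood test, two-sided, Benjamini-Hochberg, threshold 0.05). A run on simulated counts checked the procedure only, and nothing about the replicate spread of these samples is read from it. SE is the log2 fold change divided by the square root of F. The common coefficient of variation between replicates was 0.0907. The 35 genes and the neighbouring lists were chosen with earlier results of these data known. Named are all 35 genes, with values in every sample for called genes with a log2 fold change of at least 0.5 in size and for SREBP, LXR and efflux genes, and from each other list up to 3 called genes with the smallest p. Gene positions and the longest transcript, used for levels per kilobase, came from GENCODE v44lift37 on GRCh37, and promoters from RefSeq. The alternatives were DESeq2 1.42.0, RLE normalization, filterByExpr, no filter, a fit blocked by replicate number, each sample or replicate 3 of both groups left out, and a correction for transcript length and GC content. The replicate numbers come from the labels, and no source describes the replicates as paired. A gene withheld from the LXR target list is not reported here.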

Additional observations from a re-analysis of the deposited data

Results flagged for a closer look

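A pair of pseudogene symbols of CYP51A1, outside the 35 genes, carried more counts than CYP51A1 itself and is given because it lies outside the comparisons above. CYP51A1P1 had 60, 50 and 61 counts in WT and 113, 77 and 88 in METTL3-KO samples, and its log2 fold change was 0.6076 (SE 0.162, edgeR adjusted p = 0.0153). CYP51A1P2 had 92, 69 and 74 counts in WT and 147, 130 and 102 in METTL3-KO samples, and its log2 fold change was 0.611 (SE 0.153, edgeR adjusted p = 0.0111). CYP51A1, with 24 to 38 counts per sample, was at -0.08. Of 13 symbols named as pseudogenes of the 35 genes, 4 had enough counts to be tested. Reads of such near-identical copies cannot be assigned with certainty, and whether the pseudogene counts came from CYP51A1 transcripts was not tested. Without single samples the adjusted p was as high as 0.0674 for CYP51A1P1 and 0.0606 for CYP51A1P2, and with the replicate block 0.0524 and 0.0502.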

How the results depend on the processing

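Over 14 alternative analyses, 12 of the 15 genes called higher (HMGCS1, MVK, MVD, IDI1, SQLE, LSS, MSMO1, DHCR7, INSIG1, NPC1, STARD4 and NR1H2) and 2 of the 5 called lower (TM7SF2 and SOAT1) kept their call in each. LBR, NSDHL, SC5D, INSIG2, MBTPS2 and ABCG1 lost it in at least 1, 8 others gained one, and the uncalled CYP51A1, EBP, NPC2 and ABCA1 changed sign. With 1 sample left out, between 14 and 16 of the 35 genes were called higher and 3 to 6 lower, their median ran from 0.1739 to 0.2174, METTL3 from -2.0783 to -2.0045, and all genes called ran from 2188 to 3809 higher and 1976 to 3793 lower. Without replicate 3 of both groups, 4555 genes were called higher and 4823 lower, and EPCAM turned from 0.01 to -0.0982 (adjusted p = 0.0247 from edgeR). The cause was not tested. Transcript length was known for all 35 genes but for only 76.2% of genes tested, so the length and GC correction is void for counts over all genes.

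With the replicate number as a block, 1810 genes were called higher and 1719 lower, and 12 and 2 of the 35 genes. Deviations of same-numbered samples from their group means correlated at -0.586, -0.390 and -0.784 over 10336 genes. With 3 samples per group and replicate 3 apart in both, these values cannot show whether same-numbered samples shared a preparation. Between other numbers, WT replicate 3 correlated with METTL3-KO replicates 1 and 2 at 0.657 and 0.505, METTL3-KO replicate 3 with WT replicates 1 and 2 at 0.719 and 0.632, and the rest at -0.546 and -0.482. Whether the samples share preparations under another numbering was not tested. SOAT1, CYP51A1 and LUM rest on few counts, which limits their precision.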
